A study of Mus musculus with 8 samples.

Results

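Among the 8 pancreas libraries, 3 held much less RNA of the digestive enzymes than the other 5. The classes were chosen by the mean rlog value of Cpa1, Cel, Pnlip, Ctrb1 and Cela2a, which encode carboxypeptidase A1, bile salt-dependent lipase, pancreatic lipase, chymotrypsinogen B1 and elastase 2A. The rlog value is a log2 expression value that is corrected for library size. The 3 mice with the lowest mean were called acinar-poor and the other 5 acinar-rich. The acinar-poor mice were HFD replicate 3 (mean 16.55), then ob/ob replicate 2 (16.93) and HFD replicate 2 (18.52). The acinar-rich mice were ob/ob replicate 1 (19.94), LFD replicate 1 (20.40), HFD replicate 1 (20.48), LFD replicate 2 (20.57) and LFD replicate 3 (20.70). The last mouse inside the acinar-poor class, HFD replicate 2, lay 1.42 below the first mouse outside it, ob/ob replicate 1, and 1.59 above the next acinar-poor mouse. Because the measured values themselves made the classes, and every gene comes from the same libraries, all differences between the classes are given as descriptions without a test.

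Acinar cells fill most of the exocrine pancreas and make the digestive enzymes, which they store in zymogen granules and release into the ducts. The PTF1 complex, which contains Ptf1a and Rbpjl, switches on the enzyme genes, while Bhlha15, also known as Mist1, organises the secretory apparatus and Nr5a2 and Gata4 hold the acinar state. Acinar cells lose this program in pancreatitis and around pancreatic tumours, where stroma and duct-like cells take up the space.

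All mice were male. The LFD and HFD mice were wild-type C57BL/6 animals, placed at the age of 4 weeks on a low-fat diet or on a high-fat diet with 60% of calories from fat for 10 weeks. The ob/ob mice were C57BL/6J animals that lack leptin and ate standard chow from the same age of 4 weeks, so they differ from LFD mice in genotype and in food. According to the paper, the mice carried an orthotopic transplant of mT organoids, cells of a mouse pancreatic tumor model that uses Pdx1-Cre, while the labels name only pancreas as the tissue. RNA of the graft and of the host cannot be told apart in these values. No LFD mouse was acinar-poor, so class, diet and genotype were not balanced. Within HFD the classes split 2 to 1 (replicates 2 and 3 against replicate 1), and within ob/ob 1 to 1 (replicate 2 against replicate 1).

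The libraries carried the acinar markers of a pancreas in all 8 mice, but some also stood apart in markers of other tissues. HFD replicate 3 had 49 genes that lay at least 3 above all other mice, whereas each other mouse had 0 or 1 such gene. These included genes of enterocytes, the absorptive cells of the small intestine. Apoa1, the main protein of high-density lipoprotein, was at 13.46 in HFD replicate 3, at 6.51 and 6.29 in ob/ob replicates 1 and 2, and between 3.60 and 3.89 in the other 5 mice. Fabp1, which carries fatty acids inside cells, was at 13.31 in HFD replicate 3, at 6.82 and 6.42 in ob/ob replicates 1 and 2, and between 3.71 and 4.28 elsewhere. Both genes thus had the same order of mice, with HFD replicate 3 far above the ob/ob mice and the ob/ob mice above the rest. The lactase gene Lct was at 11.09 in HFD replicate 3 and at 4.96 or less elsewhere. All 15 measured genes of a list of 22 enterocyte genes were highest in HFD replicate 3, as were 16.3% of all genes, and their summed level on the log2 scale was 16.31 in this mouse, against 10.53 to 11.50 in the other mice. The list member with the highest rlog value over all mice was Anpep, and the other 7 members, including Fabp2 and Apoa4, were not analysed here. Alb, the albumin gene of hepatocytes, was at 3.62 in HFD replicate 3, 4.10 in ob/ob replicate 2 and 5.01 in HFD replicate 2, below all acinar-rich mice. HFD replicate 3 also had the highest mean over 6 blood genes (11.34, against 8.17 to 10.27 in the other mice). LFD replicate 2 had the highest mean over 16 of 20 lymphocyte genes, 5.77 against 4.06 to 4.92 in the other mice. The list medians below are therefore also given without HFD replicate 3 or LFD replicate 2 where leaving one of them out turned the sign or moved the median by more than 1.5 times.

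**Figure D1:**
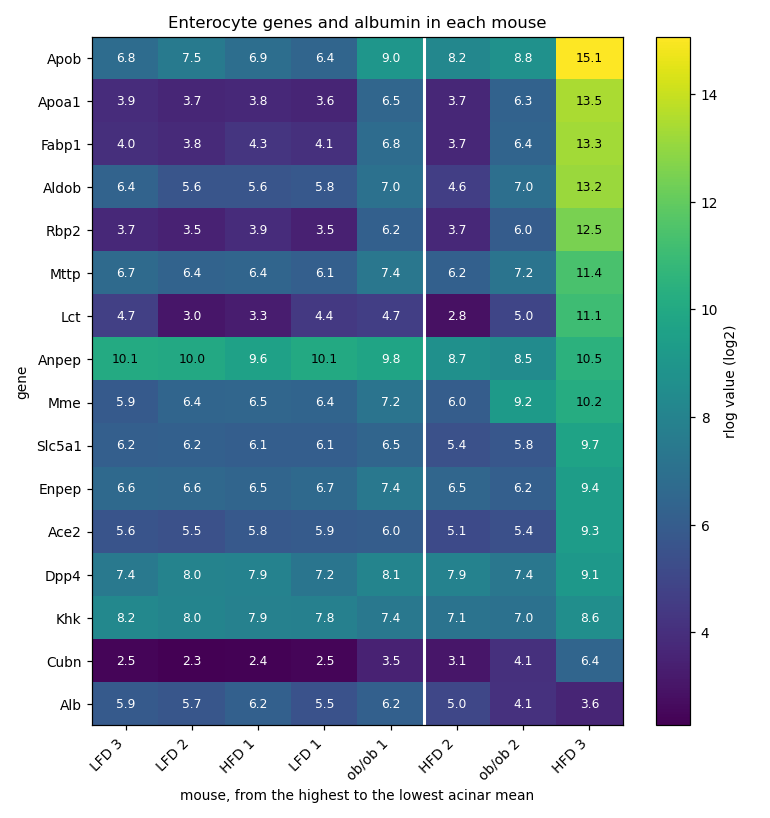
Rlog values (log2) of 15 enterocyte genes and of Alb (rows) in each of the 8 mice (columns, from the highest to the lowest acinar mean, with the white line between acinar-rich and acinar-poor mice). Color and printed value give the rlog value. HFD 3 is highest for each enterocyte gene and lowest for Alb, and both ob/ob mice lie above the other 5 mice for Apoa1, Fabp1 and Rbp2.

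The acinar program was lower as a whole in the acinar-poor mice. Of 22 further digestive enzyme genes, 22 were lower in each acinar-poor mouse than in any acinar-rich mouse, where 16.6% of all 15042 genes outside the 5 were. Their differences between the class means lay between -3.31 and -2.58, with a median of -3.12, against a median of 0.06 over all genes. The transcripts of the list were thus lower to a similar degree. Amy2b, a member of this list, is annotated as an unprocessed pseudogene in Gencode M21. Amy2a5, a pancreatic amylase, had rlog values of 23.58, 23.76 and 24.32 in LFD replicates 1 to 3, 23.90 in HFD replicate 1 and 23.02 in ob/ob replicate 1, but 21.43, 19.75 and 20.03 in HFD replicates 2 and 3 and ob/ob replicate 2. Cela1, an elastase, was at 20.37, 20.54, 20.83, 20.70 and 19.59 in the same acinar-rich mice and at 18.28, 16.46 and 16.58 in the acinar-poor mice. For both genes, and for all 22 enzymes, the value of HFD replicate 2 was between the acinar-rich mice and the other acinar-poor mice, and HFD replicate 3 had the lowest. The trypsin, amylase and elastase genes have close paralogs among which reads are shared by probability, so the difference of a single paralog is uncertain. In bulk tissue, fewer acinar cells and less enzyme RNA per cell cannot be told apart. The scale of the values also matters here: together with the 5 choosing genes these enzymes made up 20.8% to 39.6% of the summed linear values in the acinar-poor mice and 55.8% to 61.8% in the acinar-rich mice, and after quantile normalization, which gives all mice the same distribution, the median difference of the enzymes was -1.25.

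PTF1 is known to bind an E-box together with a TC-box, and some of the enzyme genes hold the letters of both upstream of their start. Sequences of 3 are shown because the enzymes and the genes of PTF1 were low in the same mice. In the 250 bases before the start of each gene (RefSeq, GRCm38.p6), both strands were searched for CACCTG and for TTTCCC, motifs that can share a letter where one ends and the other begins. Of the 27 enzyme and choosing genes, 22 matched the promoter table. CACCTG was found in 14 of them (63.6%), against 19.4% of all 27025 genes in the table. TTTCCC was found in 8 (36.4%), against 24.4% of all genes, and both in 6 (27.3%), against 4.20%. The 6 were Cel, Cela1, Cela2a, Cela3a, Prss1 and Prss2. Cela1, Prss2 and Cel stand for an elastase, a trypsinogen and a lipase among these 6. The promoter of Cela1 is chr15:100687921-100688170 on the minus strand, that of Prss2 is chr6:41521526-41521775 on the plus strand and that of Cel is chr2:28563404-28563653 on the minus strand. Each is written 5′ to 3′ on the strand of the gene, and capitals mark CACCTG and TTTCCC or their reverse complements CAGGTG and GGGAAA.
Cela1: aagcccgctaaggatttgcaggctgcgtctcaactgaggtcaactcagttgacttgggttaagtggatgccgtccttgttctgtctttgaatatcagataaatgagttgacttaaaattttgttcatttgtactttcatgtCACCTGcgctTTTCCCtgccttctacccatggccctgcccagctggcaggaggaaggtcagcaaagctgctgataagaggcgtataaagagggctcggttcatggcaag
Prss2: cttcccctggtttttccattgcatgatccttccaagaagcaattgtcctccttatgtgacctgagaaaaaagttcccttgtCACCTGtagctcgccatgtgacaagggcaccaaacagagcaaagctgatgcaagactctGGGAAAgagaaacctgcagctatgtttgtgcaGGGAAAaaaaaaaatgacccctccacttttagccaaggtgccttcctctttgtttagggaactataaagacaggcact
Cel: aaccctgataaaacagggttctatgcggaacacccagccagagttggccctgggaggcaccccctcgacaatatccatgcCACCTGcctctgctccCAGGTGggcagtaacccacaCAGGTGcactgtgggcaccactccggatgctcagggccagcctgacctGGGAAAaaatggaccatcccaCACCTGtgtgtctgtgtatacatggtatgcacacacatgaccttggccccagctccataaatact
A match shows only that the letters are present and not that the factor was bound in these mice.

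Genes of the granule, of the factors and of the endoplasmic reticulum (ER) followed the enzymes to different degrees, and the counts of lower genes stand against 16.6% of all genes lower without overlap. All 8 acinar factors were lower in each acinar-poor mouse than in any acinar-rich mouse, with a median difference of -1.97. Bhlha15 (chromosome 5 of GRCm38, 144190286 to 144194441, Gencode M21) differed by -2.90, Rbpjl (chromosome 2, 164403141 to 164415448) by -2.72 and Ptf1a (chromosome 2, 19445663 to 19447501) by -2.63. Nr5a2 followed with -2.20, Gata4 with -1.74, Xbp1, a regulator of the secretory ER, with -1.44, Mecom with -0.99 and Foxp1 with -0.50. Ptf1a had rlog values of 7.96, 8.16, 8.42, 8.45 and 7.82 in the acinar-rich mice (LFD 1 to 3, HFD 1, ob/ob 1), and of 6.87, 4.60 and 5.12 in HFD replicates 2 and 3 and ob/ob replicate 2. In the same order, Gata4 was at 8.87, 8.45, 8.60, 8.64 and 8.10, and at 7.09, 7.38 and 5.90. Thus HFD replicate 3 was lowest for Ptf1a, but ob/ob replicate 2 for Gata4, and ob/ob replicate 2 was the lowest mouse for 5 of the 8 factors. Of 17 zymogen granule genes, 13 were lower without overlap, among them the serpin Serpini2 (-3.21), the water channel Aqp12 (-3.15) and the granule membrane protein Cuzd1 (-3.11). Bace2, Vamp8, Snap23 and Stx3 overlapped, and Vamp8, Snap23 and Stx3 encode membrane fusion proteins that many cell types share. Of 34 genes for making proteins in the ER, 27 were lower, with a median difference of -0.93, and only Pdia3 was higher, by 0.24. The largest differences were those of Pdia2 (-3.19) and Erp27 (-3.09), pancreatic members of the disulfide isomerase family, and of the oxidase Ero1lb (-2.61). Of 11 genes of the cargo receptor family TMED, 7 were lower, with the largest differences for Tmed11 (-3.33) and Tmed6 (-3.17).

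**Figure D2:**
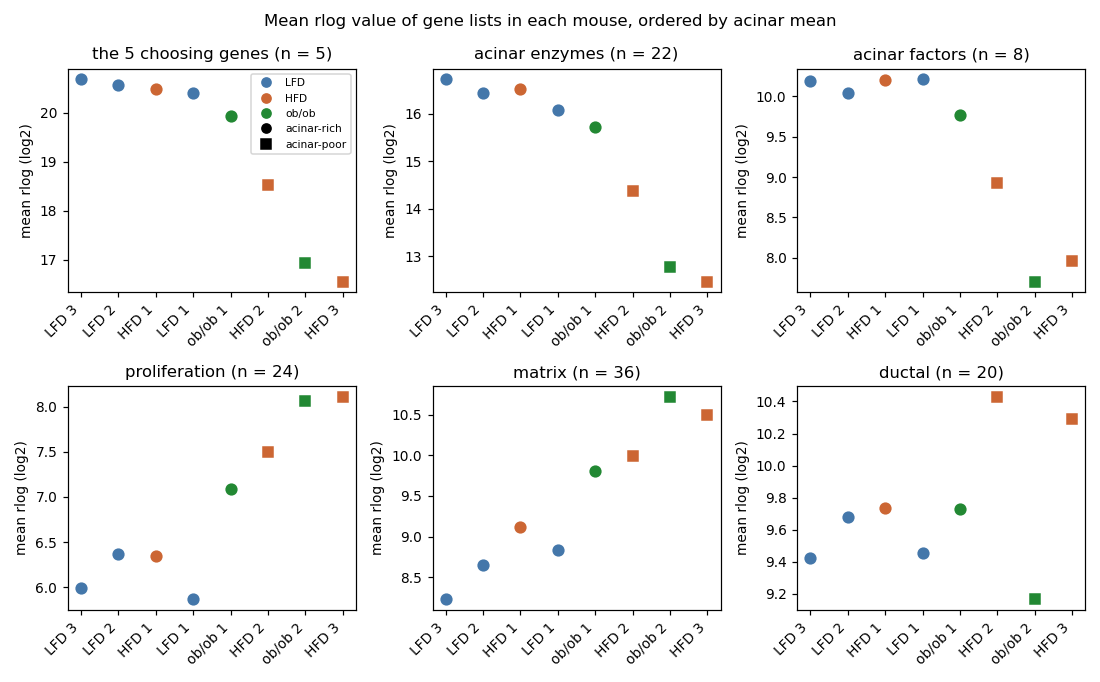
Mean rlog value (log2) of 6 gene lists in each of the 8 mice, in order of the mean of the 5 choosing genes (color: group, circles: acinar-rich, squares: acinar-poor, n: genes in the list). The acinar lists are lower in HFD 2 and lowest in ob/ob 2 and HFD 3, proliferation and matrix are higher in the acinar-poor mice and stand higher in ob/ob 1 than in the other acinar-rich mice, and the ductal list is high in HFD 2 and HFD 3 and lowest in ob/ob 2.

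Many genes of amino acid metabolism, a pathway with high activity in the pancreas, were low in the same mice as the enzymes. Of 19 measured genes of amino acid and folate metabolism, 14 were lower without overlap, against 16.6% of all genes, with a median difference of -2.02. Gnmt, which methylates glycine, was at 10.43, 10.78, 11.14, 10.69 and 9.84 in the acinar-rich mice (LFD 1 to 3, HFD 1, ob/ob 1), and at 8.43, 6.71 and 6.95 in HFD replicates 2 and 3 and ob/ob replicate 2. Its difference of -3.21 was close to that of the enzymes, as was that of the amino acid transporter gene Slc38a5 (-2.96). After quantile normalization the median of the amino acid list was -2.03 and that of the enzymes -1.25, so the relation of these lists depended on the scale. Against the same 16.6%, 29 of 32 ribosomal protein genes were lower, with a median difference of -0.75 that was -0.32 after quantile normalization, and 18 of 34 genes of mitochondrial respiration, with a median of -0.45. Rpl32 had the largest difference among the ribosomal genes (-1.22), as had Ndufb9, a subunit of complex I, among the respiratory genes (-1.22). Of 13 acinar stress genes, 6 were lower, including Reg3d (-2.82), a secreted lectin, and Fgf21 (-2.82), a hormone that stimulates secretion, and Gadd45a was higher by 1.57. Nupr1, another stress gene, was at 13.53 in HFD replicate 2, within the range of the acinar-rich mice (13.43 to 14.19), but at 10.56 and 10.89 in HFD replicate 3 and ob/ob replicate 2.

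Across all 15042 genes outside the 5, 2614 (17.4%) were higher and 2491 (16.6%) were lower in each acinar-poor mouse than in any acinar-rich mouse. With a difference of at least 1 as well, 1122 genes (7.46%) were higher and 980 (6.52%) were lower, so that 53.4% of these genes were higher. With each mouse centred on its median, 859 were higher and 1199 lower, 41.7% higher, so the balance of the directions depends on the scale. In most of these genes 1 acinar-rich mouse stood closest to the other class. In 790 of the 1122 higher genes (70.4%) and 667 of the 980 lower genes (68.1%), the acinar-rich mouse nearest to the acinar-poor mice was ob/ob replicate 1, which also had the lowest acinar mean of its class. Among the acinar-poor mice, ob/ob replicate 2 was highest in 527 of the higher genes, HFD replicate 3 in 417 and HFD replicate 2 in 178. HFD replicate 3 was lowest in 555 of the lower genes, ob/ob replicate 2 in 407 and HFD replicate 2 in 18. HFD replicate 2, which has the highest acinar mean of the 3, was therefore least often the extreme mouse in both directions.

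Hmga2 (chromosome 10, 120361275 to 120476469), a chromatin protein of embryonic and tumor cells, had the largest excess in the acinar-poor mice among genes whose classes did not overlap and whose mean over all mice reached 5. Apoa1 (3.53) and Acan (3.35) had larger differences, but their classes overlapped. The rlog values of Hmga2 were 4.63, 5.23, 4.58, 5.20 and 5.18 in the acinar-rich mice (LFD 1 to 3, HFD 1, ob/ob 1), and 8.11, 8.70 and 8.10 in HFD replicates 2 and 3 and ob/ob replicate 2, a difference of 3.34. Hmga2 lay at 2 levels, with ob/ob replicate 1 no higher than HFD replicate 1 and HFD replicate 2 as high as ob/ob replicate 2. Add2, which encodes beta-adducin of the membrane skeleton, was at 4.99, 5.91, 5.10, 5.25 and 5.38 in the acinar-rich mice and at 8.25, 9.10 and 8.35 in the acinar-poor mice, in the same order, a difference of 3.24. Slc16a3 (chromosome 11, 120948480 to 120960868), the lactate exporter MCT4, was at 5.43, 5.31, 5.71, 6.11 and 6.08, and at 8.58, 8.54 and 9.06, a difference of 2.999. Prkg2, a cyclic GMP-dependent kinase, was at 4.97, 5.79, 4.49, 5.62 and 5.46, and at 7.78, 8.24 and 8.53, a difference of 2.92. These genes shared the gap between the classes. Acsbg1, an acyl-CoA synthetase, and Tnnt2, cardiac troponin T, differed by 2.63 and 2.57, but were lower in ob/ob replicate 2 (6.64 and 6.44) than in HFD replicates 2 and 3 (8.02 to 8.91). The other genes of the 12 with the largest excess without overlap were Fam177a (2.48), the spindle gene Spag5 (2.46), Ankrd1 (2.44), a target of YAP signaling, the axon guidance gene Sema3e (2.38), the desmosome gene Pkp1 (2.38) and Cdkn2a (2.37), which encodes the cell cycle inhibitors p16 and p19. Cdkn2a was at 8.14, 6.85 and 8.41 in HFD replicates 2 and 3 and ob/ob replicate 2, and between 4.54 and 5.96 in the acinar-rich mice. Fam177a differed from this pattern, as LFD replicates 2 and 3 were at 6.77 and 6.82, near the acinar-poor mice (7.63 to 7.80), while the remaining acinar-rich mice were between 4.06 and 4.30. Hmga1, the relative of Hmga2, was between 7.28 and 7.93 in the acinar-rich mice and between 9.56 and 9.95 in the acinar-poor mice, a difference of 2.28. In the promoters of the 9 of these 12 genes that matched the table, CACCTG was found in 2 (22.2%) and TTTCCC in 3 (33.3%), against 19.4% and 24.4% of all genes. The number holding both was 0, against 4.20% of all genes, and 9 genes are too few to tell these shares apart.

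**Figure D3:**
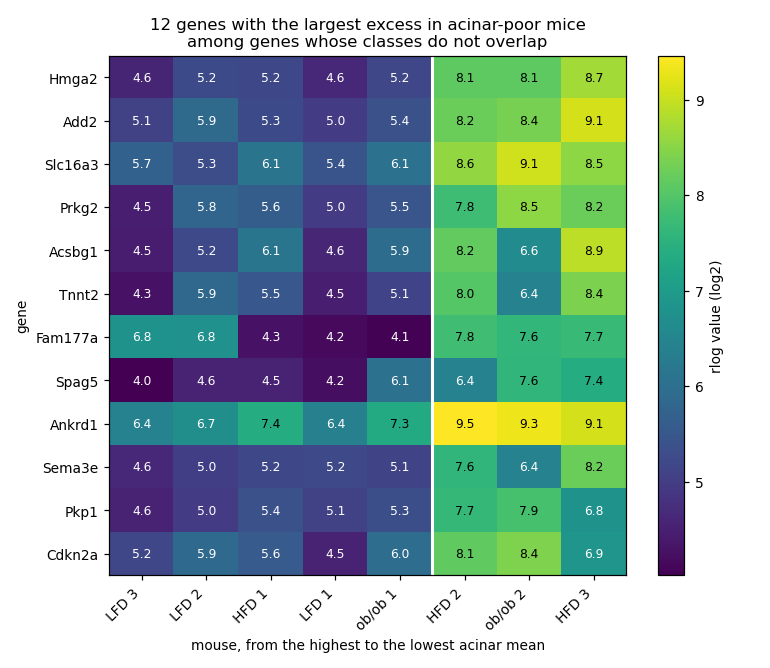
Rlog values (log2) of the 12 genes with the largest excess in the acinar-poor mice among genes whose classes do not overlap (rows) in each of the 8 mice (columns, from the highest to the lowest acinar mean, with the white line between acinar-rich and acinar-poor mice). Color and printed value give the rlog value. Hmga2, Add2, Slc16a3 and Prkg2 show a gap between the classes, whereas Fam177a is high also in LFD 2 and LFD 3, and Spag5 stands higher in ob/ob 1 (6.06) than in the other acinar-rich mice.

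At the low end, among genes without overlap, the largest difference was that of Rnu3b1 (-4.33), a small nucleolar RNA of the U3 family. It was at 12.26, 12.39 and 12.99 in LFD replicates 1 to 3 and at 11.03 in ob/ob replicate 1, but at 6.94 in HFD replicate 1 and at 6.80, 6.78 and 6.78 in HFD replicates 2 and 3 and ob/ob replicate 2. The values therefore followed diet in the HFD mice, with a difference within HFD of -0.14, and class in the ob/ob mice. U3 has near-identical copies, and 2 entries of the annotation share this symbol at the same place, so the value of Rnu3b1 is uncertain. The other 11 of the 12 genes with the largest deficit were Tmed11, Amy2a5, Try4, Cela1, Ctrc, Prss3, Gnmt, Serpini2, Pdia2, Cpb1 and Amy2b, with differences between -3.33 and -3.17.

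Genes of dividing cells were higher in the acinar-poor mice. Of 24 proliferation genes, 22 were higher in each acinar-poor mouse than in any acinar-rich mouse, where 17.4% of all genes were, and the median difference was 1.73. Top2a, which untangles DNA in dividing cells, was at 7.39, 8.56, 7.81 and 8.43 in LFD replicates 1 to 3 and HFD replicate 1, at 9.17 in ob/ob replicate 1, and at 9.69, 10.47 and 10.68 in HFD replicates 2 and 3 and ob/ob replicate 2. The spindle gene Tpx2 differed by 2.29 and the cyclin gene Ccna2 by 2.24. Mki67 and Tyms were the genes of the list that overlapped. For all 24 genes both ob/ob mice were above all LFD mice, so ob/ob replicate 1, although acinar-rich, did not lie at the level of LFD, and 24.1% of all genes had this pattern.

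Matrix genes were also higher in the acinar-poor mice. Of 36 genes, 22 were higher without overlap, against 17.4% of all genes, and 36 had a positive difference, with a median of 1.59. Tnc, the matrix glycoprotein tenascin C, was at 8.96, 8.999, 7.49 and 9.22 in LFD replicates 1 to 3 and HFD replicate 1, at 9.72 in ob/ob replicate 1, and at 10.47, 11.35 and 11.34 in HFD replicates 2 and 3 and ob/ob replicate 2, a difference of 2.17. Loxl2, which cross-links collagen, differed by 1.996 and the basement membrane collagen Col18a1 by 1.97. For 35 of the 36 genes both ob/ob mice were above all LFD mice, as for 24.1% of all genes. All HFD mice were above all LFD mice for 22 of the 36, as for 12.9% of all genes. Of 23 fibroblast genes, 10 were higher without overlap (17.4% of all genes), with a median difference of 0.81, and S100a4 (1.92), Fbln2 (1.86) and Vim (1.72) differed most. S100a4, which myeloid cells also express, was at 10.94 in ob/ob replicate 2, against 8.48 and 8.62 in HFD replicates 2 and 3 and 6.69 to 8.47 in the acinar-rich mice.

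Among the immune lists, macrophage genes had a median difference of 1.19. Csf1r, Itgam, Cd14, Spi1 and Cx3cr1, 5 of 24 genes, were higher in each acinar-poor mouse than in any acinar-rich mouse, a share near the 17.4% of all genes. Cx3cr1, a chemokine receptor of monocytes and resident macrophages, was at 6.04, 6.25, 5.82 and 6.78 in LFD replicates 1 to 3 and HFD replicate 1, at 7.48 in ob/ob replicate 1, and at 7.83, 8.11 and 9.70 in HFD replicates 2 and 3 and ob/ob replicate 2. Thus LFD was lowest, HFD replicate 1 and ob/ob replicate 1 were intermediate, and the acinar-poor mice were highest. For 23 of the 24 genes both ob/ob mice, and for 19 all HFD mice, were above all LFD mice (24.1% and 12.9% of all genes were). Within HFD 22 of the 24 genes, and within ob/ob 23, were higher in the acinar-poor mice by any amount, as were 54.4% and 53.5% of all genes. The medians of these differences were 0.67 and 0.69. The macrophage genes thus differed between the groups and also by class within each model, while the count separated by class over all 8 mice was near the share of all genes. The list mean of acinar-poor HFD replicate 3 (9.39) lay below that of acinar-rich ob/ob replicate 1 (9.69). Of 13 measured neutrophil genes, Mmp9, Cxcl2 and Trem1 were higher without overlap (17.4% of all genes), and the median difference was 1.36. This median was 1.30 within HFD and -0.30 within ob/ob. For 9 of the 13 genes all HFD mice, and for 8 both ob/ob mice, were above all LFD mice (12.9% and 24.1% of all genes were). The calprotectin genes S100a8 and S100a9 overlapped, with 7.18 and 7.79 in ob/ob replicate 2, below HFD replicate 1 (7.78 and 8.06). Without HFD replicate 3, 18 of the 24 macrophage genes were separated, with higher values in the acinar-poor mice, as were 22.4% of all genes. Of 16 measured lymphocyte genes 0 were separated, with a median difference of 0.27. Without LFD replicate 2 the median was 0.51 with 3 genes higher, near the share of 19.3% over all genes without this mouse. The lymphocyte median was 0.17 without LFD replicate 1, 0.15 without LFD replicate 3 or without ob/ob replicate 2, and 0.05 after quantile normalization.

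Glycolysis was the metabolic list that was higher in the acinar-poor mice. Of 20 genes, 17 were higher without overlap (17.4% of all genes), with a median difference of 1.31, and Pfkm, Pdk1 and Bsg overlapped. The 4 LFD and HFD mice of the acinar-rich class had list means of 9.07, 9.26, 9.08 and 9.07, ob/ob replicate 1 had 9.29, and the acinar-poor mice had 10.25, 10.20 and 10.28. Unlike those of the proliferation and matrix lists, the glycolysis means thus lay near 2 levels. Ob/ob replicate 1 was near the LFD mice, though above them, and HFD replicate 2 was as high as the other acinar-poor mice. For 11 of the 20 genes both ob/ob mice were above all LFD mice, as for 24.1% of all genes. Besides Slc16a3, the glucose transporter gene Slc2a1 differed by 1.68, the hexokinase gene Hk2 by 1.45 and Gapdh by 1.47. The glycolysis, enterocyte and cargo receptor lists were chosen after the values were seen. Of 20 measured immediate early genes, 10 were higher without overlap (17.4% of all genes), with a median difference of 0.82, including Ier3 (1.66) and Atf3 (1.52), and Btg2 was lower by 0.75.

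**Figure D4:**
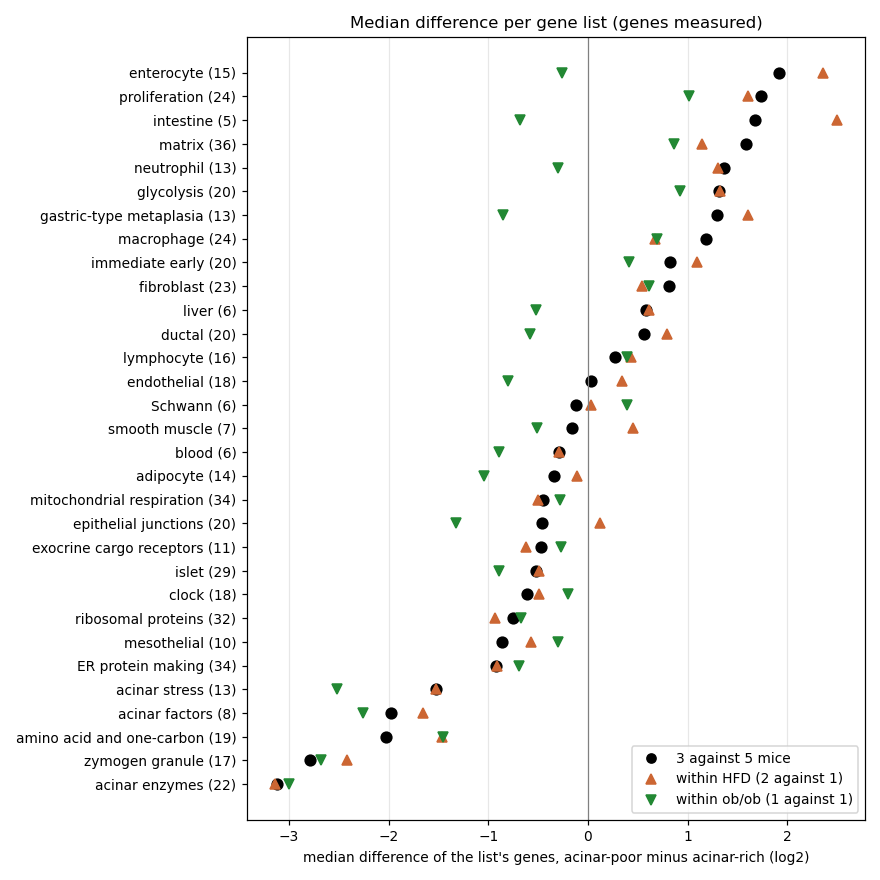
Median difference of the genes of 31 lists (log2, x axis) between acinar-poor and acinar-rich mice (black circles), within HFD (orange triangles, replicates 2 and 3 minus replicate 1) and within ob/ob (green triangles, replicate 2 minus replicate 1), with the number of genes in parentheses. The acinar enzymes and factors lie between -3.14 and -1.65 in each, proliferation and matrix are above 0 in each, and the enterocyte, intestine, ductal, gastric-type and neutrophil lists are above 0 within HFD and below 0 within ob/ob.

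The classes occur within both obesity models, and these comparisons share no mouse. Within HFD, replicates 2 and 3 were at least 1 higher on average than replicate 1 for 1711 genes (11.4%) and at least 1 lower for 1159 (7.71%). Within ob/ob, replicate 2 was at least 1 higher than replicate 1 for 915 genes (6.08%) and at least 1 lower for 1254 (8.34%). For 431 genes (2.87%) both were at least 1 higher and for 650 (4.32%) both were at least 1 lower. Across all genes, which are not independent replicates, the within-model differences had r = 0.59, and r = 0.57 over the 14961 genes outside the acinar and ER lists. These differences rest on 3 and 2 mice that were placed by the same values, so they describe these mice only. The acinar enzymes had a median of -3.14 within HFD and -2.995 within ob/ob. Proliferation had 1.60 and 1.01, matrix 1.14 and 0.86, and glycolysis 1.33 and 0.92. The genes with the largest excess in both models were Fam177a, Add2, Hmga2, Acan, Slc16a3, Prkg2, Cdh2 and Hmga1. Acan, a cartilage proteoglycan, was at 4.86 in HFD replicate 2, within the range of the acinar-rich mice (3.93 to 4.96), and at 10.78 in HFD replicate 3 and 7.44 in ob/ob replicate 2, so its mean within HFD came from 1 mouse. Cdh2, N-cadherin, was at 9.04 in ob/ob replicate 2, 7.41 and 7.59 in HFD replicates 2 and 3, and between 5.21 and 6.33 in the acinar-rich mice. The genes with the largest deficit in both were the antimicrobial peptide gene Hamp2, Sycn, Prss2, Clps, Tmed11, Sdr9c7, Serpini2 and Rnase1, and Sycn, a granule protein, had -3.28 within HFD and -3.54 within ob/ob.

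**Figure D5:**
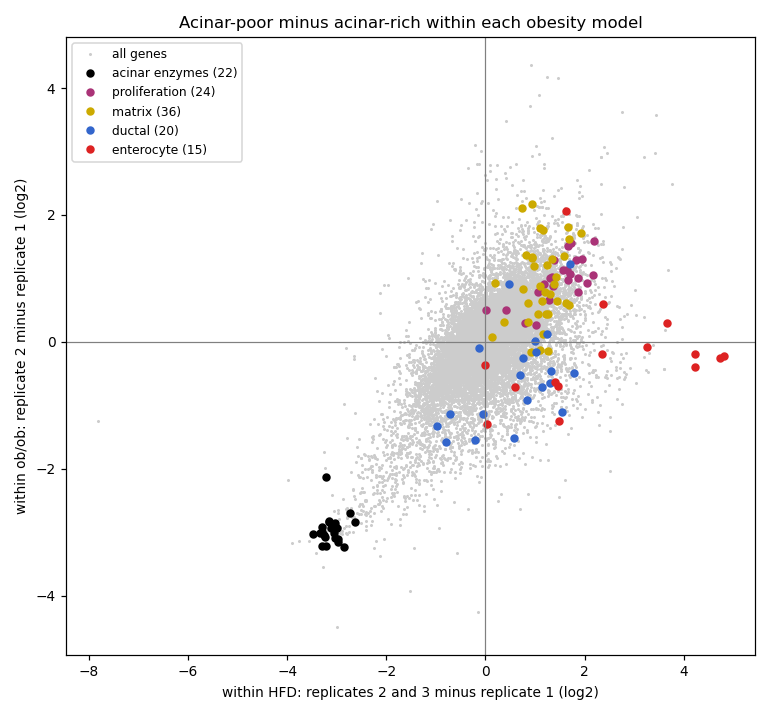
Difference within ob/ob (y axis, replicate 2 minus replicate 1, log2) against difference within HFD (x axis, mean of replicates 2 and 3 minus replicate 1, log2) for all genes (grey points) and 5 gene lists (colored). The acinar enzymes form a cluster near -3 on both axes, proliferation and matrix genes lie mostly above 0 on both axes, and ductal and enterocyte genes lie mostly to the right and below 0.

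Many epithelial genes other than those of acinar cells were low in ob/ob replicate 2, but not in HFD replicates 2 and 3. Of 20 ductal genes, 14 were higher within HFD and 4 within ob/ob, by any amount, as were 54.4% and 53.5% of all genes. Their medians were 0.79 and -0.58, while the median between the classes was 0.56, which was 0.24 without HFD replicate 3, 0.36 without HFD replicate 2, 0.97 without ob/ob replicate 2 and 0.85 after quantile normalization. The duct keratin gene Krt19 was at 9.26, 9.95 and 9.33 in LFD replicates 1 to 3, at 9.82, 11.26 and 11.47 in HFD replicates 1 to 3, and at 10.05 and 8.95 in ob/ob replicates 1 and 2. HFD replicates 2 and 3 were thus the highest of all mice and ob/ob replicate 2 was the lowest. Krt7 was at 11.52 and 11.63 in HFD replicates 2 and 3, at 9.39 in ob/ob replicate 2 and between 8.89 and 9.87 in the acinar-rich mice. Sox9, a factor of duct and progenitor cells, was between 6.85 and 7.12 in all 8 mice. Between the classes, Slc4a4, Anxa2 and Anxa4 were higher and Pkhd1 and Ambp lower without overlap, shares below the 17.4% and 16.6% of all genes. Of 20 genes of epithelial junctions and epithelial splicing, 12 were higher within HFD and 0 within ob/ob, with medians of 0.12 and -1.32, and ob/ob replicate 2 was the lowest of all mice for 18, as it was for 14.3% of all genes. This list was chosen after the values were seen. Cdh1, E-cadherin, was at 9.42 in ob/ob replicate 2, at 11.10 and 11.22 in HFD replicates 2 and 3, and between 10.34 and 10.58 in the acinar-rich mice. Esrp1, Esrp2 and Ovol2, 3 of the 20 members, were lower in each acinar-poor mouse than in any acinar-rich mouse, a share near the 16.6% of all genes. In ob/ob replicate 2, the mesenchymal genes Cdh2 (9.04) and Vim (12.87) were higher than in any other mouse. The genes with the clearest opposite differences were Tspan1, Pklr, Akr1c19, Prlr, Cldn7 and Enpep, higher within HFD and lower within ob/ob, and Klhdc8a, Mkks, Cpa3, Retnla, Ttn and Six4 in the other direction. Over all genes, 45 (0.299%) were at least 1 higher within HFD and at least 1 lower within ob/ob, and 5 (0.0332%) the reverse. In the first group, Cldn7, a tight junction claudin, was at 7.45, 8.48 and 8.92 in HFD replicates 1 to 3 and at 7.99 and 6.69 in ob/ob replicates 1 and 2, while Enpep (6.498 in HFD replicate 2, 9.39 in HFD replicate 3) and Prlr (4.45 and 7.25, against 4.55 in HFD replicate 1) were high in the mouse with the enterocyte genes but not in the other acinar-poor HFD mouse.

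The gastric-type and intestinal lists depended on HFD replicate 3. Of 13 measured gastric-type genes, Dclk1 was higher and Tff2 lower without overlap, shares below the 17.4% and 16.6% of all genes, and the median difference of 1.29 was 0.59 without HFD replicate 3. Tff3, a trefoil factor of goblet cells, was at 9.17 in HFD replicate 3 and between 3.13 and 5.09 in the other mice. Tff2, in contrast, was low in the mice with few enzymes, with 14.40 to 15.40 in the acinar-rich mice and 12.99, 11.12 and 11.49 in HFD replicates 2 and 3 and ob/ob replicate 2. The median difference of 5 measured intestinal genes was 1.68, with 0.47 without HFD replicate 3 and 2.53 without ob/ob replicate 2. That of the 15 enterocyte genes was 1.92, and -0.08 without HFD replicate 3. Cdh17, a cadherin of intestinal epithelium, was however at 10.66 in HFD replicate 2 and 11.34 in HFD replicate 3, above the other mice (7.53 to 8.64). The part of intestinal tissue in these results was not tested. The gene counts changed little without HFD replicate 3, with 1275 genes higher and 985 lower by at least 1 without overlap, and without LFD replicate 2 they were 1180 and 985. Without HFD replicate 3, 22 of 22 enzymes, 8 of 8 acinar factors, 23 of 24 proliferation genes, 22 of 36 matrix genes and 17 of 20 glycolysis genes were separated in the direction given above, against 22.4% of all genes higher and 19.3% lower without this mouse.

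Lists of other cells mostly had smaller differences, and their counts stand against 17.4% of all genes higher and 16.6% lower without overlap. Of 29 measured islet genes, Gcg, Sst, Pcsk1 and Ttr were lower without overlap, a share below that of all genes, with a median difference of -0.52. It was -0.23 without HFD replicate 3, -0.13 without ob/ob replicate 1 and -0.96 without ob/ob replicate 2, and the highest list mean was that of ob/ob replicate 1 (7.93, against 6.15 to 7.21 in the other mice). Of 14 adipocyte genes, Fabp4, Lpl, Retn and Acsl1 were lower, with a median of -0.34, and ob/ob replicate 2 was the lowest mouse for 9, as for 14.3% of all genes. Without ob/ob replicate 2 the adipocyte median was -0.10, and without HFD replicate 2 it was -0.51. Of 18 endothelial genes, only the receptor gene Flt1 was higher, by 0.80, with a list median of 0.03 that was -0.08 with each mouse centred on its median, -0.09 without HFD replicate 3 and 0.06 without LFD replicate 2. Of 10 mesothelial genes, Msln was higher (1.60) and Gpm6a lower (-1.22), with a median of -0.86. Of 6 measured Schwann cell genes, Mbp was lower by 0.45, and of 7 measured smooth muscle genes 0 were separated, with medians of -0.12 and -0.16. Without LFD replicate 2 these medians were -0.03 and 0.05, and without HFD replicate 3 that of smooth muscle was -0.46. With each mouse centred on its median they were -0.23 and -0.26. Of 6 measured liver genes, Alb was lower (-1.66), with a median of 0.59, and of 6 blood genes 0 were separated, with a median of -0.29, whereas without HFD replicate 3, 5 were lower, with a median of -1.17. The blood median was -0.12 without LFD replicate 2 and -0.06 after quantile normalization. Of 18 clock genes, Bhlhe40 was higher (1.44) and Cry2 and Ciart lower, with a median of -0.61. Some genes stood out in 1 acinar-poor mouse. Mme, a membrane peptidase, was at 6.03 in HFD replicate 2 but at 10.21 and 9.24 in the other acinar-poor mice. H19, an imprinted RNA, was at 8.82 in ob/ob replicate 2 and 7.32 in ob/ob replicate 1, against 4.58 to 5.77 in the LFD and HFD mice. Adamtsl3 was at 9.06 in ob/ob replicate 2 and between 5.92 and 6.43 in the other 7 mice. Cxcl5, a neutrophil chemokine, and the mucin-type glycosyltransferase gene Gcnt3 were at 9.48 and 8.39 in HFD replicate 2 and at 9.43 and 8.44 in HFD replicate 3, but at 6.67 and 5.92 in ob/ob replicate 2.

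The groups of the labels were compared across all 15047 genes with limma, which was fitted to all 8 mice. No gene had an adjusted p-value under the threshold of 0.05 between HFD and LFD or between ob/ob and LFD (0 of 15047 in each, 0%), whereas 1728 genes (11.5%) were higher and 1257 (8.35%) lower in HFD at an unadjusted p under 0.05, and 1751 (11.6%) higher and 1080 (7.18%) lower in ob/ob. For the 24 genes with the largest differences among those whose classes do not overlap, 12 in each direction, adjusted p-values lay between 0.150 and 0.901 for HFD and between 0.189 and 0.982 for ob/ob. Each group of obese mice holds an acinar-rich mouse, and leaving that mouse out changed the result. Without HFD replicate 1, 2812 genes passed the adjusted threshold between HFD and LFD (1632 higher, 1180 lower), and 89 between ob/ob and LFD. Without ob/ob replicate 1, 61 passed between ob/ob and LFD (35 higher, 26 lower). The 89 genes rest on the same ob/ob and LFD mice as before, and only the estimate of spread that all groups share in limma was new. Once the acinar-rich mouse of a group is left out, all remaining mice of that group are acinar-poor. In the comparison of that group with LFD, diet or genotype and acinar class then cannot be told apart. The lone ob/ob mouse was assumed to vary like the other groups. With the mean of the 5 choosing genes as a covariate, 1402 genes had an unadjusted p under 0.05 for HFD and 1428 for ob/ob. With this covariate 1 gene, Serpina7, which encodes a thyroxine-binding globulin, passed for ob/ob against LFD (adjusted p = 0.0101 with limma, adjusted difference 4.00). The covariate holds the values that made the classes, and no LFD mouse lay at its low end. The adjusted difference therefore relies largely on a slope set by the HFD and ob/ob mice, and Serpina7 did not pass without the covariate. Serpina7 was at 2.78, 3.30 and 3.005 in LFD replicates 1 to 3, at 5.07, 3.87 and 3.04 in HFD replicates 1 to 3, and at 6.77 and 4.99 in ob/ob replicates 1 and 2, so both ob/ob mice were above LFD, but HFD replicate 1 overlapped with them.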

How the data were processed

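RNA-Seq of the pancreas was analysed in 8 male mice, 3 LFD, 3 HFD and 2 ob/ob, grouped by their labels. Per the labels, RNA samples with a RIN above 7 were sequenced paired-end. The authors quantified Gencode M18 transcripts (GRCm38.p6) with Salmon 0.11.3, summarized them per gene with tximport and deposited rlog values of DESeq2 1.22.2, which are on a log2 scale, for 15047 gene symbols. How genes were filtered is not given in the sources used here. Counts were not used, so the depth of each mouse is unknown and no counting error is given. The rlog function shrinks differences of genes with few reads.

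From these values, class means were subtracted, and a gene was called separated when the classes did not overlap. The classes follow 5 measured genes and got no test. HFD against LFD and ob/ob against LFD were fitted with limma 3.58.1 in R 4.3.3 (all 8 mice, 3 group means, variance trend, Benjamini-Hochberg adjustment). The labels number the samples m1 to m8 and do not name animals beyond this, so p-values measure the spread between these samples. Coordinates are from Gencode M21 and promoters from RefSeq, both on GRCm38. The alternatives were median centring, quantile normalization, a filter at a mean of 5, a difference of at least 2, class medians, no variance trend, 2 groups only, an acinar covariate, a replicate block and each mouse left out.

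The members and 27 gene lists were chosen with earlier results of these data known, and 4 more lists after the values were seen. Genes are named as the 12 with the largest class difference each way among genes whose classes do not overlap, 3 per list and all acinar factors, 8 each way by the smaller of the within-HFD and within-ob/ob differences, 6 each way with opposite differences, and 4 per acinar-poor mouse that stand apart from the other acinar-poor mice. Except in lists, these reach a mean of 5 on the rlog scale. One gene that this rule names in the amino acid list and the alleles of the graft's tumor model are not reported here. Top2a, S100a8 and S100a9 are in these sets, while Krt19, Sox9, Cdh1, Esrp1, Slc2a1, Hk2, Gapdh, Lct, Tmed6, Anpep, Serpina7 and members of lists named beside counts of 5 or fewer were chosen after their values were seen.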

Additional observations from a re-analysis of the deposited data

Results flagged for a closer look

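In the 5 acinar-rich mice, 55 values were checked for a mouse far from the others, and chance gives such a mouse in about 1 in 20 groups. LFD replicate 2 stood apart in the mean of the smooth muscle list (5.22). Among the same 5 mice, ob/ob replicate 1 stood apart in the means of the liver list (6.25) and the enterocyte list (6.89) and in Spag5 (6.06).

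Some list means differed in direction within HFD (replicates 2 and 3 minus replicate 1, each of them on the same side) and within ob/ob (replicate 2 minus replicate 1). The difference between the models was not tested. The mean differences were 0.626 within HFD and -0.562 within ob/ob for the ductal list, 1.33 and -0.732 for the gastric-type list, 0.326 and -0.608 for the endothelial list, and 1.16 and -0.208 for the neutrophil list. They were 0.0227 and -1.09 for the adipocyte list, -0.0894 and 0.205 for the Schwann cell list, 1.38 and -0.711 for the liver list, 2.15 and -0.878 for the intestinal list, and 0.190 and -1.30 for the epithelial junction list. In HFD replicates 1 to 3, the liver list mean was 5.11, 5.24 and 7.75, and the intestinal list mean 7.34, 7.95 and 11.04. Most of both differences within HFD thus came from replicate 3.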

How the results depend on the processing

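The class counts of 1122 higher and 980 lower genes were 77 and 232 with a difference of at least 2, and between 970 and 1586 and between 917 and 1246 on leaving out each mouse. Quantile normalization left 909 and 1062. Of 28 class counts under the alternatives, 26 stayed within 1.5 times of the value in the report, as did 10 of 10 counts within HFD and within ob/ob. For limma, the number of genes with an adjusted p-value under 0.05 between HFD and LFD was 1 with only those groups fitted (Rnu3b1, adjusted p = 9.93e-05, limma) and 0 to 2812 on leaving out each mouse, the highest without HFD replicate 1. Between ob/ob and LFD it was 1 with the acinar covariate, 38 with only those groups fitted, and 0 to 89 on leaving out each mouse. Deviations of same-numbered mice from their group means correlated from -0.281 (LFD and HFD replicate 3) to 0.592 (HFD and ob/ob replicate 1). In both HFD and ob/ob, replicate 1 was acinar-rich and replicate 2 acinar-poor, so number and class cannot be told apart there. Whether the replicate numbers pair the mice is therefore not known. With the replicate block in limma 0 genes passed in either comparison, with 3255 and 3243 at an unadjusted p under 0.05.

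Of the list medians, 268 kept their direction and moved by less than the spread between mice, 30 moved by more and 12 reversed. The endothelial median of 0.03 reversed to -0.0752 with centring and to -0.0792 with quantile normalization, and leaving out a mouse gave -0.0927 to 0.246. On leaving out each mouse the Schwann median was -0.191 to 0.0224, the smooth muscle median -0.462 to 0.0996, the blood median -1.17 to 0.298 and the enterocyte median -0.0834 (without HFD replicate 3) to 2.68. The cause was not tested. No difference within HFD without replicate 1, or within ob/ob without either mouse, can be formed. Depth is unknown, and 3 against 5 mice limit every class difference.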
